A study of Homo sapiens with 12 samples.

Results

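Selenoprotein and glutathione peroxidase transcripts were followed in human HCT116 colorectal carcinoma cells with and without the phosphatase regulator SDS22. The 10 genes described are SELENOP, SELENOH, SELENOW, SELENOM, SELENOK, SELENOT, SELENOS, GPX1, GPX2 and GPX4, found by gene name among the 58233 genes of the count table. They were chosen by their function and by a readout of these data, the high SELENOP count after treatment, so the values of SELENOP are a description and carry no test. Of the other 9 genes, 8 passed the filter on low counts and were tested, and GPX2 did not pass.

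All cells carried a doxycycline (Dox)-inducible OsTIR1 transgene, the plant F-box protein that recruits a ubiquitin ligase to auxin-tagged proteins, at the AAVS1 locus. The parental line had no further modification, whereas in the SDS22-degron line both PPP1R7 alleles, which encode SDS22, were tagged with mAID-mClover. The labels give its genotype as Tet-OsTIR1 SDS22 WT (SDS22) and call it SDS22 degron. Because that line was grown from an isolated colony, SDS22 tagging and clonal history cannot be told apart when the lines are compared. Treatment lasted 48 h, with 2 µg/ml Dox and 500 µM of the auxin IAA, and both lines were studied with and without it, giving the groups untreated parental, treated parental, untreated SDS22-degron and treated SDS22-degron, each with 3 libraries labelled as biological replicates.

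Selenoproteins contain selenocysteine, an amino acid that is inserted at a UGA codon with the help of a hairpin in the messenger RNA, a dedicated elongation factor and a dedicated tRNA. Many of them are redox enzymes. The glutathione peroxidases GPX1, GPX2 and GPX4 reduce peroxides with glutathione, whereas SELENOP is secreted, mainly by the liver, and carries selenium through the plasma to cells that take it up by receptors of the LDL receptor family.

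The promoter of SELENOP is shown because its highest and lowest CPM differed by the largest ratio of the 9 genes with enough counts. It was taken from RefSeq (GRCh38.p14), lies on the minus strand at chr5:42811843-42812142 and runs from 250 bases before the annotated start site to 50 bases after it. Capitals mark, in this order, an antioxidant response element (TGACNNNGC, on the opposite strand), a FOXO motif (TGTTTAC, on the opposite strand) and a TATA box (TATAAA), beginning 99, 45 and 31 bases before the start site and not overlapping.
SELENOP: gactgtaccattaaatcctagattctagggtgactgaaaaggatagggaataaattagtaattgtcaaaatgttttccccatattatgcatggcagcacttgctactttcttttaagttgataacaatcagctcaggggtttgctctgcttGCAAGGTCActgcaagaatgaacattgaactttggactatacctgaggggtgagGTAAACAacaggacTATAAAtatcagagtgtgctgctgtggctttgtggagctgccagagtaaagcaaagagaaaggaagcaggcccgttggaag

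Among the 9 of 10 genes with a promoter entry, SELENOK and GPX2 also held an antioxidant response element, and 60 bases around each are shown for comparison, with the element in capitals (chr3:53891943-53892002 and chr14:64942834-64942893, both on the minus strand).
SELENOK: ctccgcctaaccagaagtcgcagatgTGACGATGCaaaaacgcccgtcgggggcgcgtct
GPX2: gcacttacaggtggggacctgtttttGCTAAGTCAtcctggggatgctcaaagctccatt
On either strand, this element was found in 13.3% of all 35116 promoters, the FOXO motif in 3.42% and the TATA box in 11.5%. SELENOP was the single gene of the 9 with the FOXO motif and with the TATA box. Of 23 selenoprotein genes with a promoter entry, these 9 included, 1 held the FOXO motif and 5 the TATA box, SEPHS2 among them. A further 7 motifs were searched in the same promoters. HNF4 (CAAAGTC, 3.37% of all promoters), NRF1 (1.24%) and the cyclic AMP response element (TGACGTCA, 1.85%) were in none of the 9 genes, whereas the CCAAT box (CCAAT, 34.6%) was in 5, the metal response element (TGCNCNC, 55.9%) in 6, the xenobiotic response element (GCGTG, 36.5%) in 3 and the ER stress motif (CCACG, 38.1%) in 4. These matches describe letters and do not show that a factor binds there.

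Gene counts summed to 12133915 in the smallest library and 14657508 in the largest. PPP1R7 mRNA was between 40.1 and 51.1 CPM (read counts scaled to a common library size with TMM factors) in all libraries, which checks nothing, since the degron acts on the protein. Summed CPM of 6 colon epithelial markers ranged from 2833 to 4357, whereas 6 leukocyte markers had at most 8 counts each. Of 6 fibroblast markers, COL1A2, DCN and LUM were at 0, and the sum, mostly COL1A1, was between 9.96 and 31.7 CPM. Of the untreated parental libraries, replicate 1 stood apart in HERPUD1, a gene of the endoplasmic reticulum (ER) stress response, with 355 CPM against 48.4 to 62.5 CPM in the 11 other libraries (a gene singled out after its values were seen). Results that rest on this library are therefore also given without it.

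SELENOP mRNA (ENSG00000250722, chromosome 5, 42799880 to 42887392 in the deposited table) was highest in treated SDS22-degron cells and lowest in untreated SDS22-degron cells. Untreated parental cells had 8.36, 6.80 and 10.1 CPM in replicates 1, 2 and 3, and treated parental cells had 22.6, 11.6 and 26.1 CPM. Untreated SDS22-degron cells had 4.74, 3.71 and 4.93 CPM, and treated SDS22-degron cells had 34.6, 34.8 and 31.0 CPM. The order of the groups was thus untreated SDS22-degron, untreated parental, treated parental and treated SDS22-degron, and no 2 neighbours in this order overlapped. Replicate 2 of the treated parental cells was low and lay closer to the untreated parental libraries than to the other treated parental ones.

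The raw counts behind these SELENOP levels were small, between 54 and 65 in untreated SDS22-degron cells and between 376 and 453 in treated SDS22-degron cells. Expressed as fold changes, SELENOP was 7.51-fold higher with Dox/IAA in SDS22-degron cells (log2 fold change 2.91) and 2.39-fold higher with Dox/IAA in parental cells (1.26). Only 9 of the 16657 genes tested had a larger log2 fold change with Dox/IAA in SDS22-degron cells, compared with 215 in parental cells. The gene thus stood higher in both treated groups than in the untreated cells of the same line.

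Between the lines, the SELENOP difference had opposite signs with and without treatment. In treated cells it was 1.66-fold higher in SDS22-degron cells (log2 fold change 0.73), and without treated parental replicate 2, the low library, this log2 fold change was 0.47. In untreated cells the SDS22-degron line had 0.529 times the parental level (log2 fold change -0.92). The difference between the Dox/IAA changes of the lines, here called the interaction, was 1.65 on the log2 scale.

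**Figure D1:**
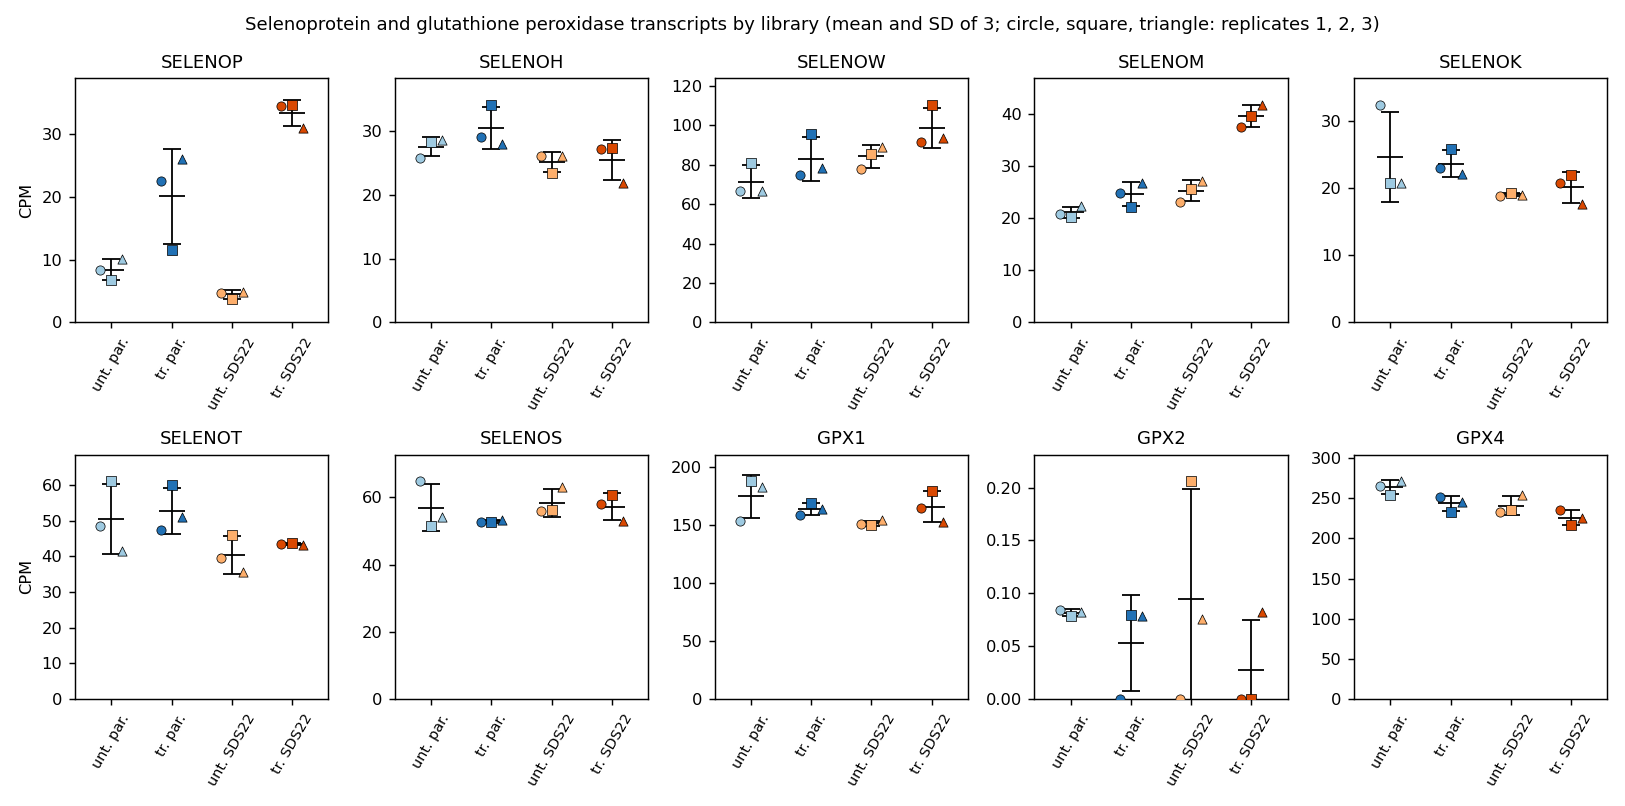
CPM of each of the 10 genes (vertical axes, starting at 0) in untreated (unt.) and treated (tr.) parental (par.) and SDS22-degron (SDS22) cells. Circles, squares and triangles are replicates 1, 2 and 3, and bars give the mean and SD of 3 libraries. SELENOP ranges from 3.71 to 34.8 CPM and SELENOM has 37.5 to 41.8 CPM in the treated SDS22-degron libraries, above all others, whereas GPX1 and GPX4 stay within 150 to 188 and 216 to 272 CPM.

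The level of other secretory or cell type markers was recorded beside SELENOP, because it is known as a liver protein. The summed CPM of 7 hepatocyte markers ranged from 2.35 to 4.04 in untreated parental, from 6.64 to 10.5 in treated parental, from 9.63 to 10.9 in untreated SDS22-degron and from 24.8 to 28.9 in treated SDS22-degron cells. Nearly all of this sum came from SERPINA1, whereas APOB, APOH and TTR were at 0 in all libraries and ALB had at most 4 counts. The summed CPM of 8 cell division genes ranged from 1897 to 2283 in untreated parental, from 1592 to 2271 in treated parental, from 2339 to 2377 in untreated SDS22-degron and from 780 to 914 in treated SDS22-degron cells. The part of cell division in the SELENOP level was not tested. In bulk RNA, fewer cells that express a gene and less RNA per cell cannot be told apart.

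CCDC152, the protein-coding gene that overlaps SELENOP on the opposite strand, had at most 4 counts in any library. Per kilobase (kb) of deposited gene length, SELENOP averaged 1.48 CPM per kb in untreated parental, 3.54 in treated parental, 0.785 in untreated SDS22-degron and 5.88 in treated SDS22-degron cells. It was a small part of all selenoprotein RNA: of the summed CPM per kb of 25 selenoprotein genes it made up between 0.114% and 1.03%. The summed CPM of these 25 genes stayed between 1821 and 1959 in all 12 libraries.

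SELENOM, a thioredoxin-like protein of the ER lumen, was called in 4 of the 5 comparisons, more than any other of the 8 tested genes. It had 20.9, 20.2 and 22.2 CPM in untreated parental, 24.8, 22.1 and 26.7 CPM in treated parental, 23.04, 25.7 and 27.1 CPM in untreated SDS22-degron and 37.5, 39.5 and 41.8 CPM in treated SDS22-degron cells. The treated SDS22-degron libraries lay above all 9 others. SELENOM was higher in treated SDS22-degron than in treated parental cells by 0.69 on the log2 scale (SE 0.0904, adjusted p = 6.99e-06 by edgeR's quasi-likelihood test over all 16657 genes). It rose with Dox/IAA in SDS22-degron cells by 0.65 (SE 0.0896, adjusted p = 8.66e-06).

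With Dox/IAA in parental cells, the log2 fold change of SELENOM was 0.22 (95% interval 0.02 to 0.42, adjusted p = 0.0889) and did not pass the test. The interaction was 0.43 (SE 0.131, adjusted p = 0.0340), and this call ended when any one of 8 of the 12 libraries was left out, with values from 0.37 to 0.49 and the highest adjusted p at 0.0966. These 8 were replicates 1 and 3 of untreated parental, 1 and 2 of treated parental, 1 and 2 of untreated SDS22-degron, and 2 and 3 of treated SDS22-degron cells. Between the untreated lines SELENOM was 0.26 higher in SDS22-degron cells (SE 0.0944, adjusted p = 0.0478), a call that ended without any library of this comparison other than untreated SDS22-degron replicate 1 (0.21 to 0.32, adjusted p up to 0.175), under DESeq2 (adjusted p = 0.0629) and without the filter on low counts (adjusted p = 0.105). Unlike SELENOP, SELENOM was thus not lower in untreated SDS22-degron than in untreated parental cells, and the libraries of these groups did not overlap.

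SELENOW, a small thioredoxin-fold protein of the cytosol, was measured at 66.5, 81.1 and 66.5 CPM in untreated parental, 74.7, 95.6 and 78.4 CPM in treated parental, 77.9, 85.6 and 89.3 CPM in untreated SDS22-degron and 91.8, 111 and 93.8 CPM in treated SDS22-degron cells. The treated groups overlapped, since treated parental replicate 2 lay above 2 of the treated SDS22-degron libraries. Between the treated lines SELENOW was 0.25 higher in SDS22-degron cells (SE 0.101, adjusted p = 0.0482), close to the threshold of 0.05, and with the replicate number as a block adjusted p was 0.00452. Without the block, the call ended without replicate 1 (0.18, adjusted p = 0.218) or 3 (0.21, adjusted p = 0.154) of treated parental cells and without replicate 2 (0.16, adjusted p = 0.237) or 3 (0.29, adjusted p = 0.0617) of treated SDS22-degron cells. The processed pseudogene SELENOWP1 had 166 to 298 counts per library, so that reads could have been divided between the genes.

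In the remaining comparisons the log2 fold change of SELENOW was 0.24 between the untreated lines (adjusted p = 0.0883), 0.23 with Dox/IAA in SDS22-degron cells (adjusted p = 0.0644) and 0.21 with Dox/IAA in parental cells (adjusted p = 0.119). None of these passed the test without the block. With the replicate block SELENOW passed between the untreated lines (0.24, adjusted p = 0.0107). With Dox/IAA it then passed in SDS22-degron cells (0.22, adjusted p = 0.00904) and in parental cells (0.21, adjusted p = 0.0219). The interaction was 0.01, with a 95% interval from -0.29 to 0.31.

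SELENOK, SELENOT and SELENOS are membrane proteins of the ER. SELENOK is a cofactor of the palmitoyltransferase ZDHHC6, SELENOS binds the ATPase VCP in ER-associated degradation, and SELENOT is a thioredoxin-like oxidoreductase. SELENOK had 32.5, 20.8 and 20.8 CPM in untreated parental, 23.1, 25.9 and 22.1 CPM in treated parental, 18.9, 19.3 and 19.1 CPM in untreated SDS22-degron and 20.7, 22.1 and 17.6 CPM in treated SDS22-degron cells. The highest value was that of untreated parental replicate 1, the library with 355 CPM of HERPUD1.

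The log2 fold change of SELENOK between the untreated lines was -0.37 (SE 0.141, adjusted p = 0.0577), and -0.12 (adjusted p = 0.499) without that library. With Dox/IAA in parental cells its log2 fold change turned from -0.06 to 0.18 when the same library was left out, with adjusted p = 0.788 and 0.250. SELENOK was -0.23 between the treated lines (adjusted p = 0.192) and 0.08 with Dox/IAA in SDS22-degron cells (adjusted p = 0.670). It passed the test in no comparison without the replicate block. With the block it passed between the untreated lines (-0.36, edgeR adjusted p = 0.0349).

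SELENOS showed the same high library: untreated parental cells had 64.9, 51.6 and 54.3 CPM in replicates 1, 2 and 3. Treated parental cells had 52.7, 52.5 and 53.3 CPM, untreated SDS22-degron cells 55.9, 56.1 and 63.0 CPM, and treated SDS22-degron cells 58.0, 60.8 and 53.0 CPM. The groups overlapped in each of the 4 comparisons of groups. Its log2 fold changes lay between -0.11 and 0.12 in the 4 comparisons of groups, with adjusted p from 0.286 to 0.824.

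SELENOT had 48.5, 61.1 and 41.6 CPM in untreated parental, 47.5, 59.9 and 50.9 CPM in treated parental, 39.4, 45.9 and 35.6 CPM in untreated SDS22-degron and 43.3, 43.7 and 43.2 CPM in treated SDS22-degron cells. Replicate 2 was the highest library of each group, and the treated lines did not overlap. Its log2 fold change was -0.28 between the treated lines (adjusted p = 0.0668), which passed the test with the replicate block (-0.27, adjusted p = 0.0130). Between the untreated lines it was -0.32 (adjusted p = 0.0540), which also passed with the block (-0.32, adjusted p = 0.00816). Dox/IAA gave 0.11 in SDS22-degron cells and 0.06 in parental cells (adjusted p = 0.492 and 0.727). SERP1 overlaps SELENOT by 354 bases on the opposite strand and had 1228 to 2217 counts.

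SELENOH, a nucleolar redox protein, had 25.8, 28.2 and 28.6 CPM in untreated parental, 29.1, 34.1 and 28.0 CPM in treated parental, 26.03, 23.4 and 26.1 CPM in untreated SDS22-degron and 27.2, 27.3 and 21.9 CPM in treated SDS22-degron cells. The treated lines did not overlap, yet the log2 fold change of -0.25 (95% interval -0.47 to -0.04, adjusted p = 0.0509) was just outside the threshold. With the replicate block it passed (-0.25, adjusted p = 0.0411). Without the block it was -0.14 (adjusted p = 0.296) without replicate 2 of the treated parental cells and -0.16 (adjusted p = 0.254) without replicate 3 of the treated SDS22-degron cells. With Dox/IAA the SELENOH level differed by 0.02 in SDS22-degron and 0.14 in parental cells (adjusted p = 0.885 and 0.309).

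The glutathione peroxidases differed far more among themselves than across the 4 groups. GPX4, which reduces lipid hydroperoxides in membranes, was the most abundant of the 10 genes, with 265, 255 and 272 CPM in untreated parental, 252, 233 and 245 CPM in treated parental, 234, 235 and 254 CPM in untreated SDS22-degron and 235, 216 and 226 CPM in treated SDS22-degron cells. The log2 fold changes of GPX4 were -0.11 between the treated lines, -0.13 between the untreated lines, -0.09 with Dox/IAA in SDS22-degron cells and -0.11 with Dox/IAA in parental cells. The adjusted p was 0.159, 0.125, 0.216 and 0.168, respectively, and the lowest lower bound of the 4 intervals (95%) was -0.26. GPX4 was thus called in no comparison. Its untreated lines did not overlap, but by a narrow margin (254.8 against 254.2 CPM). The untreated and treated parental libraries were likewise only narrowly apart (254.8 against 252.3 CPM).

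GPX1, the main cytosolic enzyme of this kind, had 154, 188 and 183 CPM in untreated parental, 158, 169 and 164 CPM in treated parental, 151, 150 and 154 CPM in untreated SDS22-degron and 165, 179 and 153 CPM in treated SDS22-degron cells. The untreated lines overlapped by a narrow margin. Between them the log2 fold change was -0.21 (SE 0.0762, adjusted p = 0.0505), and without untreated parental replicate 1 it was -0.28 and passed the test (adjusted p = 0.00959). With the replicate block it also passed (-0.20, adjusted p = 0.0271). In the other 3 comparisons of groups GPX1 had log2 fold changes between -0.10 and 0.13, and adjusted p was 0.168 or more. The pseudogene GPX1P1 had 318 to 411 counts per library.

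GPX2, the gastrointestinal enzyme, was barely detected in this colorectal line. It had 10 counts in all 12 libraries together, at most 3 in a single library, and 0 in 4 libraries. A count of 0 allows up to 3 counts, which here correspond to 0.206 to 0.253 CPM, so no difference of GPX2 between groups was detectable at this depth. CHURC1, which spans the whole of GPX2 on the opposite strand, had 188 to 497 counts.

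**Figure D2:**
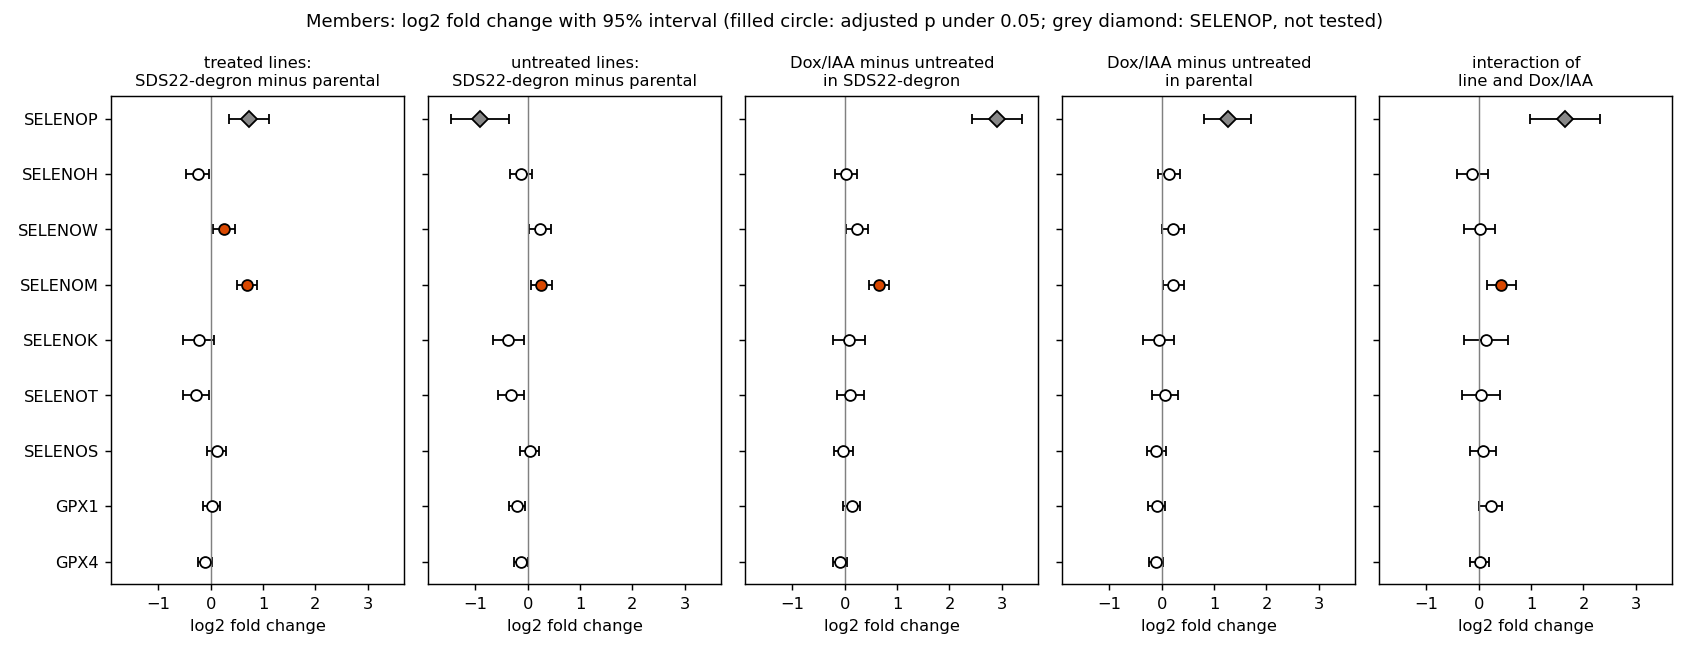
Log2 fold change (horizontal axes) of the 9 genes with enough counts in the 5 comparisons. Points are estimates and bars 95% intervals, and filled circles passed the test (adjusted p under 0.05). The grey diamond is SELENOP, which was not tested, and its bars do not allow for the choice of this gene by its values. SELENOM is filled in 4 panels and SELENOW in 1, whereas the intervals of SELENOH, SELENOK, SELENOT, SELENOS, GPX1 and GPX4 belong to open circles in all 5.

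Counted over the family, 2 of the 8 tested genes (SELENOM and SELENOW) were higher and 0 lower in treated SDS22-degron than in treated parental cells, where 21.8% of all tested genes were higher and 23.1% lower. With the replicate block 4 of the 8 were called there, SELENOH and SELENOT being the lower ones. Between the untreated lines 1 was higher (SELENOM) and 0 lower, against 13.2% and 15% of all genes. With the replicate block SELENOW was also called higher between the untreated lines, and SELENOK, SELENOT and GPX1 were called lower. With Dox/IAA in SDS22-degron cells 1 of 8 rose (SELENOM) and 0 fell, against 26% and 25.5%, and in parental cells 0 rose and 0 fell, against 15.9% and 15.7%. In parental cells 2 of the 8 (SELENOM and SELENOW) had an unadjusted p under 0.05 in edgeR, and the likelihood ratio test of edgeR and DESeq2 also called 0, whereas the replicate block gave 1 (SELENOW). In the interaction 1 of 8 was called higher (SELENOM) and 0 lower, against 6.03% and 8.35%. By the quasi-likelihood test without the block, SELENOM thus made up all of these counts except for the call of SELENOW. Outside the interaction, the shares by that test were near or below those of all genes. The median log2 fold change of the 8 genes was -0.05, -0.13, 0.09, 0.00 and 0.06 in these comparisons, while that of all genes was between -0.01 and 0.00.

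The position of the genes bears on the comparison of the lines. The median log2 fold change of the 939 tested genes on chromosome 3 was -0.27 between the untreated lines and -0.26 between the treated lines, and it was -0.01 with Dox/IAA in SDS22-degron cells. SELENOK, SELENOT and GPX1 lie on chromosome 3, and their log2 fold changes between the untreated lines were -0.37, -0.32 and -0.21. SELENOM lies on chromosome 22, whose 392 genes had a median of 0.11 between the untreated and 0.07 between the treated lines. SELENOP lies on chromosome 5, with medians of 0.07 in both. The part of these chromosome-wide shifts in the differences between the lines was not tested.

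**Figure D3:**
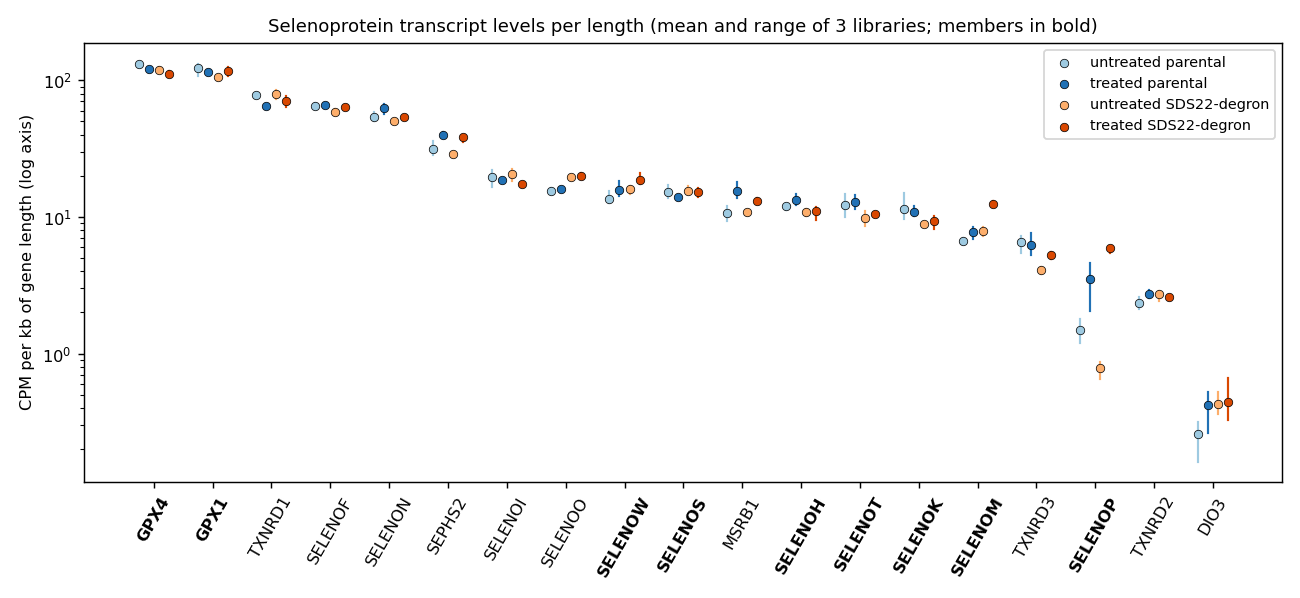
CPM per kb of deposited gene length (vertical log axis) of 19 selenoprotein genes, ordered by their mean. Dots are means and lines the range of 3 libraries, colours give the 4 groups and the 10 genes of the family are in bold (GPX2 is left out). GPX4 and GPX1 lie between 105 and 135 CPM per kb in all libraries, and the groups are spread widest for SELENOP.

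Compared per length, GPX4 (112 to 131 CPM per kb as group means) and GPX1 (106 to 123) were the most abundant of the 10 genes in each group. SELENOW (13.6 to 18.8 CPM per kb), SELENOS (14 to 15.5), SELENOH (10.9 to 13.2), SELENOT (9.75 to 12.8), SELENOK (8.82 to 11.4) and SELENOM (6.63 to 12.4) formed a middle range in which neighbouring genes overlapped. SELENOP was below all of these in each group, its highest mean of 5.88 CPM per kb being under the lowest of SELENOM. The deposited length counts all annotated exons of a gene, so that genes with long rare isoforms have low values per kb.

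The other 15 human selenoprotein genes were listed for comparison, and 10 of them were tested. GPX3 and GPX6 had 0 counts in all libraries, and SELENOV and the deiodinases DIO1 and DIO2, which activate thyroid hormone, had at most 4 counts per library. Of the 10 tested, 1 was higher and 1 lower between the treated lines (21.8% and 23.1% of all genes), and likewise 1 and 1 between the untreated lines (13.2% and 15%). With Dox/IAA, 2 rose and 1 fell in SDS22-degron cells (26% and 25.5% of all genes), and 3 rose and 1 fell in parental cells (15.9% and 15.7%). In the interaction edgeR called 0 of the 10, against 6.03% of all genes higher and 8.35% lower, and DESeq2 also called 0. An unadjusted p under 0.05 was seen for 1 of the 10 (TXNRD3), and for at least the 2396 genes called over all genes.

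SEPHS2, a selenoprotein itself, makes the selenophosphate from which selenocysteine is built. It rose with Dox/IAA in both lines, from 80.3 ± 9.81 (SD, n = 3) to 102 ± 5.29 CPM in parental cells (log2 fold change 0.34, edgeR adjusted p = 0.00331) and from 74.1 ± 0.394 to 97.6 ± 6.83 CPM in SDS22-degron cells (0.40, edgeR adjusted p = 0.000463). Both calls held in all 16 alternatives. SEPHS2 thus shared with SELENOP the higher level in both treated groups, but at a similar size in each line, with an interaction of 0.05 (95% interval -0.19 to 0.29).

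MSRB1, which repairs oxidised methionine, rose with Dox/IAA in parental cells from 22.9 ± 2.82 to 33.2 ± 4.74 CPM (log2 fold change 0.54, edgeR adjusted p = 0.000886). In SDS22-degron cells it was 23.6 ± 0.157 CPM untreated and 28.2 ± 1.56 CPM treated (0.26, adjusted p = 0.0509 by edgeR). Between the treated lines the log2 fold change of MSRB1 was -0.24 (edgeR adjusted p = 0.0701), which passed the test with the replicate block (-0.23, edgeR adjusted p = 0.0451). Between the untreated lines it was 0.04 (edgeR adjusted p = 0.807). MSRB1 lies on chromosome 16, whose 726 tested genes had a median of -0.31 between the treated and -0.30 between the untreated lines. The part of this shift in the MSRB1 difference was not tested. TXNRD1, the cytosolic thioredoxin reductase, fell in parental cells from 524 ± 9.67 to 436 ± 10.9 CPM (-0.27, edgeR adjusted p = 0.0102). In SDS22-degron cells its log2 fold change with Dox/IAA was -0.16 (edgeR adjusted p = 0.0792, and 0.0495 with the replicate block). The pseudogene RPL18AP3 lies within TXNRD1 on the same strand and had 2927 to 5243 counts.

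SELENOO, a mitochondrial AMP-transferring enzyme, was called between the lines both without and with treatment. It had 36.5 ± 1.86 CPM in untreated parental and 46.4 ± 0.534 CPM in untreated SDS22-degron cells (log2 fold change 0.35, edgeR adjusted p = 0.00148), and 37.6 ± 1.65 and 47.1 ± 2.42 CPM in the treated lines (0.32, edgeR adjusted p = 0.00131). Both calls held in all 16 alternatives. SELENOO is on chromosome 22, like SELENOM.

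TXNRD3, a thioredoxin reductase best known from testis, was lower in untreated SDS22-degron than in untreated parental cells (12.4 ± 0.756 against 19.9 ± 3.03 CPM, log2 fold change -0.68, edgeR adjusted p = 0.000878). It lies on chromosome 3. It rose with Dox/IAA in SDS22-degron cells to 16.0 CPM (0.36, edgeR adjusted p = 0.0327), a call that ended without any one of 4 libraries: replicates 2 and 3 untreated and replicates 1 and 2 treated (adjusted p up to 0.107). Between the treated lines its log2 fold change was -0.27 (edgeR adjusted p = 0.108).

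SELENON, an ER protein known from muscle disease, was lower by 0.21 in treated SDS22-degron than in treated parental cells (edgeR adjusted p = 0.0212) and rose by 0.20 with Dox/IAA in parental cells (edgeR adjusted p = 0.0328). Each of these SELENON calls ended without any one of 4 of the 6 libraries compared, with adjusted p up to 0.146 over all alternatives tried, and the second also ended with GC correction and with only the groups compared. These libraries were replicates 1 and 3 of treated parental cells in both cases, together with replicates 1 and 2 of treated SDS22-degron cells in the first and of untreated parental cells in the second. SELENOI, an enzyme of phospholipid synthesis, fell by 0.24 with Dox/IAA in SDS22-degron cells (edgeR adjusted p = 0.0313), a call that ended without untreated replicate 1 or 2 or treated replicate 2, or when libraries were scaled by size only (adjusted p up to 0.149 over all alternatives tried). SELENOF, TXNRD2 and DIO3 passed the test in no comparison without the block. With the replicate block SELENOF passed between the untreated lines (-0.16, edgeR adjusted p = 0.0291). It then also passed with Dox/IAA in SDS22-degron cells (0.14, edgeR adjusted p = 0.0352).

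**Figure D4:**
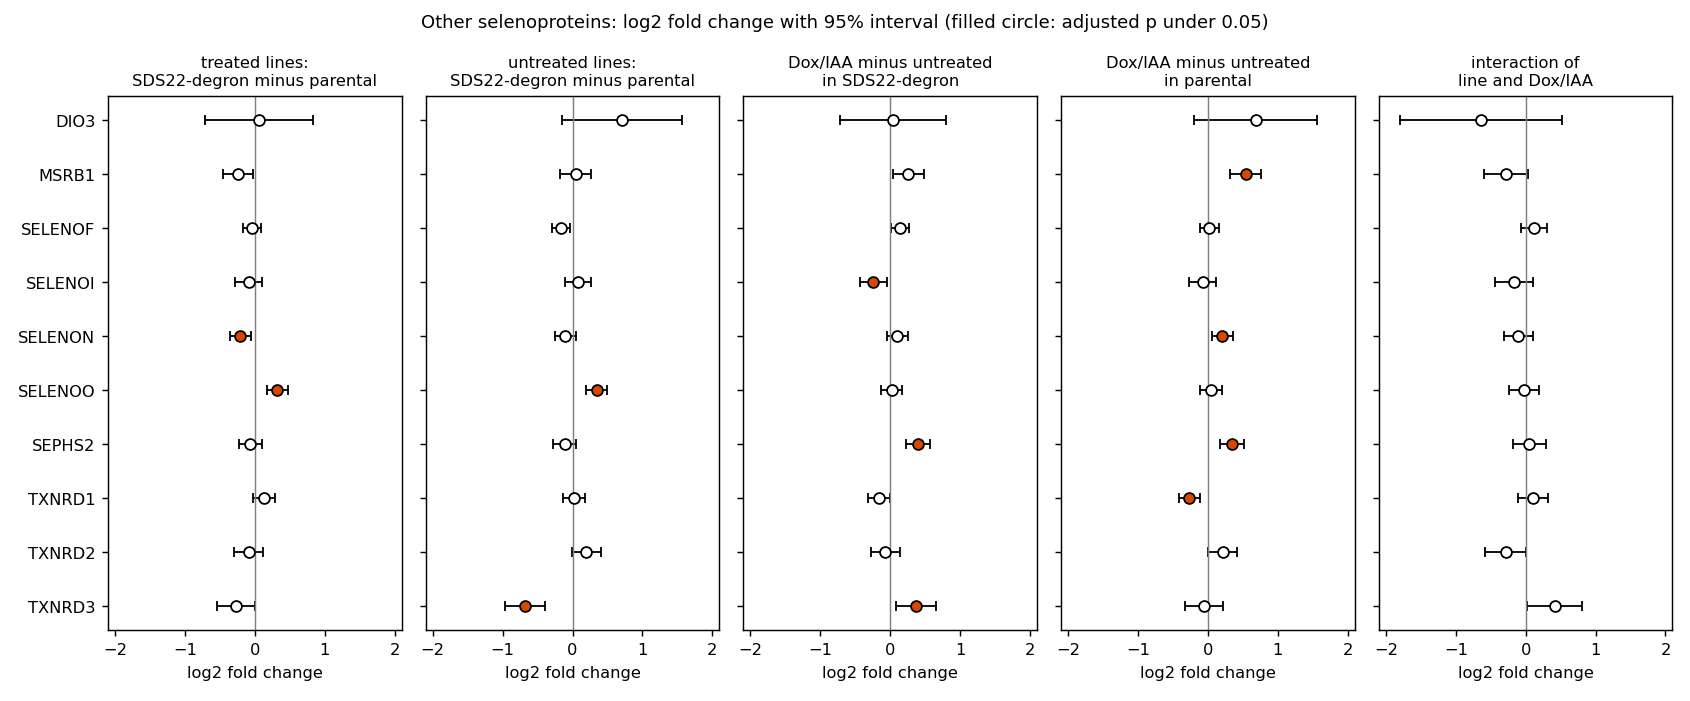
Log2 fold change (horizontal axes) with 95% interval of the 10 other selenoprotein genes tested, in the same 5 comparisons. Filled circles passed the test. SELENOO is filled in both comparisons of the lines and SEPHS2 in both Dox/IAA comparisons, whereas the interaction panel holds open circles alone.

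Genes that make and insert selenocysteine moved in both directions. Of 12 tested, 1 was higher and 3 lower between the treated lines, and 4 rose and 3 fell with Dox/IAA in SDS22-degron cells, against 21.8% and 23.1% of all genes between the treated lines and 26% and 25.5% with Dox/IAA. SECISBP2L, a relative of the protein that binds the selenocysteine hairpin, rose with Dox/IAA in SDS22-degron cells from 60.8 ± 4.14 to 113 ± 5.81 CPM (log2 fold change 0.89, edgeR adjusted p = 1.31e-08), and in parental cells by 0.67 (edgeR adjusted p = 2.55e-06). PSTK, the kinase that prepares the selenocysteine tRNA, rose by 0.50 (edgeR adjusted p = 0.0122), and this call ended without replicate 3 of either group (adjusted p up to 0.0641), while the log2 fold change stayed between 0.40 and 0.56 over all alternatives tried. NCL (nucleolin), an abundant nucleolar protein that can bind this hairpin, fell by 0.85 (edgeR adjusted p = 1.94e-08), and SEPHS1, a relative of SEPHS2 without selenocysteine, fell by 0.43 (edgeR adjusted p = 5.15e-05). NCL also fell with Dox/IAA in parental cells (log2 fold change -0.53, edgeR adjusted p = 2.40e-05). EEFSEC, the elongation factor for selenocysteine, was lower by 0.42 between the treated lines (edgeR adjusted p = 0.00198), and it too lies on chromosome 3. Between the untreated lines its log2 fold change was already -0.38 (edgeR adjusted p = 0.00647). With Dox/IAA in SDS22-degron cells it was -0.12 (edgeR adjusted p = 0.337).

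Among receptors that take up SELENOP, LRP2 (megalin) had 12 counts in total and was not tested. LRP1 had 12.3 ± 1.25 CPM in untreated parental, 17.9 ± 1.73 in treated parental, 15.7 ± 1.14 in untreated SDS22-degron and 28.8 ± 4.06 in treated SDS22-degron cells. It was 0.69 higher in the treated SDS22-degron line (edgeR adjusted p = 8.34e-05) and rose with Dox/IAA by 0.87 in SDS22-degron and 0.54 in parental cells (edgeR adjusted p = 4.88e-06 and 0.00276). Between the untreated lines LRP1 was already 0.36 higher (edgeR adjusted p = 0.0384), a call that ended without any one of 4 of the 6 libraries. LRP8, the receptor known from brain and testis, had in contrast a log2 fold change of -0.63 (edgeR adjusted p = 2.09e-05) between the treated lines. Between the untreated lines that of LRP8 was already -0.38 (edgeR adjusted p = 0.00394). With Dox/IAA in SDS22-degron cells it was -0.20 (edgeR adjusted p = 0.0751).

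In the glutathione list, 1 of 12 genes was higher and 5 were lower between the treated lines (21.8% and 23.1% of all genes), and 2 rose and 2 fell with Dox/IAA in SDS22-degron cells (26% and 25.5% of all genes). Between the untreated lines 0 were higher and 8 lower (13.2% and 15% of all genes). GCLM, a subunit of the enzyme that starts glutathione synthesis, fell with Dox/IAA in SDS22-degron cells from 45.5 ± 3.00 to 26 ± 3.74 CPM (log2 fold change -0.81, edgeR adjusted p = 4.53e-05). GSR, which regenerates glutathione for the peroxidases, was lower by 0.40 between the treated lines (edgeR adjusted p = 1.42e-05). Between the untreated lines its log2 fold change was already -0.29 (edgeR adjusted p = 0.000832). With Dox/IAA in SDS22-degron cells it was -0.10 (edgeR adjusted p = 0.148). GPX8, an ER peroxidase with cysteine in place of selenocysteine, was between 64.3 and 69.6 CPM as group means and passed the test in no comparison, whereas GPX5 and GPX7 had 0 and 1 counts in total.

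In the thioredoxin and peroxiredoxin list, 1 of 12 genes rose and 9 fell with Dox/IAA in SDS22-degron cells (26% and 25.5% of all genes). Between the treated lines 3 were higher and 3 lower (21.8% and 23.1% of all genes), and with the replicate block TXN and PRDX2, the latter named after its values were seen, were also called lower there (edgeR adjusted p = 0.0480 and 0.0390). PRDX1 fell with Dox/IAA from 774 ± 45.2 to 522 ± 9.37 CPM (log2 fold change -0.57, edgeR adjusted p = 5.08e-06), and TXN (thioredoxin) fell by 0.52 (edgeR adjusted p = 1.88e-05). PRDX5 rose by 0.39 (edgeR adjusted p = 0.000108). These enzymes reduce peroxides without selenium, alongside the glutathione peroxidases.

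Of 11 tested genes of lipid peroxidation and ferroptosis, the process that GPX4 restrains, 7 were higher and 3 lower between the treated lines (21.8% and 23.1% of all genes). With Dox/IAA in SDS22-degron cells 6 rose and 4 fell (26% and 25.5% of all genes). ALOX5 (5-lipoxygenase) was 2.78 higher on the log2 scale between the treated lines (edgeR adjusted p = 1.62e-07), at 9.28 ± 1.5 against 1.35 ± 0.272 CPM. It was already 2.19 higher between the untreated lines (edgeR adjusted p = 2.32e-05), at 5.38 ± 0.815 against 1.17 ± 0.802 CPM, and rose by 0.79 with Dox/IAA in SDS22-degron cells (edgeR adjusted p = 0.00343). LPCAT3, which places polyunsaturated fatty acids in phospholipids, was 0.65 higher between the treated lines (edgeR adjusted p = 2.68e-06). Its log2 fold change between the untreated lines was 0.24. TFRC, the transferrin receptor, fell with Dox/IAA in SDS22-degron cells from 553 ± 22.8 to 263 ± 32.3 CPM (log2 fold change -1.07, edgeR adjusted p = 7.52e-09). It also fell with Dox/IAA in parental cells (log2 fold change -0.68, edgeR adjusted p = 7.65e-06). Of genes that limit lipid peroxidation, GCH1 rose with Dox/IAA in SDS22-degron cells by 0.66 (edgeR adjusted p = 2.43e-06), with an interaction of 0.49 (edgeR adjusted p = 0.00884). DHODH fell by 0.70 in SDS22-degron cells (edgeR adjusted p = 1.85e-05) and by 0.51 in parental cells (edgeR adjusted p = 0.000539). Between the untreated lines DHODH was already at -0.54 (edgeR adjusted p = 0.000312). The genes named from this list thus moved both ways.

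Of 13 tested partners of SELENOS and SELENOK at the ER, 2 were higher and 1 lower between the treated lines (21.8% and 23.1% of all genes), and 3 rose and 1 fell with Dox/IAA in SDS22-degron cells (26% and 25.5% of all genes). The gene that fell was ZDHHC6, the palmitoyltransferase that SELENOK serves: it had 122 ± 9.20 CPM in untreated parental, 109 ± 10.5 in treated parental, 91.2 ± 4.26 in untreated SDS22-degron and 55.1 ± 0.801 in treated SDS22-degron cells. The change of ZDHHC6 with Dox/IAA in SDS22-degron cells was -0.73 on the log2 scale (edgeR adjusted p = 4.68e-07), and the interaction was -0.57 (edgeR adjusted p = 0.00175). SELENOK itself had interaction 0.14 with a 95% interval from -0.28 to 0.56. UBXN6, a cofactor of VCP, rose by 0.62 with Dox/IAA in SDS22-degron cells (edgeR adjusted p = 1.57e-05). In parental cells it rose by 0.30 (edgeR adjusted p = 0.0197), a call that ended in 4 of 16 alternatives.

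The 5 genes whose log2 CPM followed SELENOP most closely over the 12 libraries were CLDN3, SERINC3, NEO1, KDM5B and TULP3, with Pearson's r of 0.986, 0.985, 0.982, 0.982 and 0.981. These values are a description across libraries that share 4 group means. The 5 genes were chosen by this likeness, so a shared order of the groups is no separate result. CLDN3, a tight junction protein, averaged 18.1 CPM in untreated parental, 24.9 in treated parental, 13.9 in untreated SDS22-degron and 34.9 in treated SDS22-degron cells, the same order of groups as SELENOP. KDM5B, a histone demethylase, averaged 51.8, 85.8, 37.0 and 105 CPM in these groups. Within the family, r with SELENOP was 0.695 for SELENOM, 0.361 for SELENOW and -0.387 for GPX4, and between -0.156 and 0.246 for the other 5 genes.

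**Figure D5:**
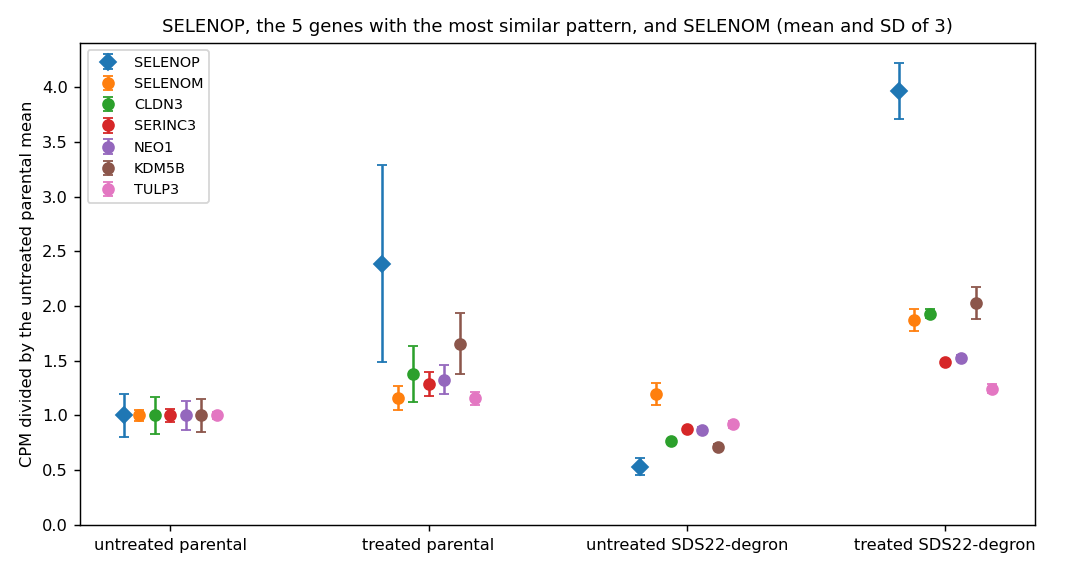
CPM of SELENOP, its 5 most similar genes and SELENOM divided by their untreated parental mean (vertical axis, starting at 0) in the 4 groups. Points are means and bars the SD of 3 libraries. SELENOP spans a wider range than any other gene shown, and SELENOM alone is not below its untreated parental mean in untreated SDS22-degron cells.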

How the data were processed

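RNA of 12 HCT116 libraries was sequenced after poly-A selection and stranded library preparation. Per the submitters' processing notes, reads were handled with cutadapt 1.15, Bowtie2 2.3.3.1, STAR 2.5.2b, SAMtools 1.5 and featureCounts 1.5.3 on GRCh38. The strand setting and annotation release are not given in the sources used here. The authors deposited raw read counts per gene, not normalized, with a column of GC content in percent per gene, also made by the authors, which served in the GC correction.

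Counts were analysed with edgeR 4.0.16 in R 4.3.3, using TMM factors, the expression filter by group (minimum count 10) and the quasi-likelihood test with 1 mean for each of 4 groups. P-values were adjusted by Benjamini-Hochberg over 16657 tested genes and called at 0.05. CPM values use TMM library sizes, and log2 CPM used a prior count of 2. As alternatives, DESeq2 1.42.0 and the likelihood ratio test of edgeR were run, besides other normalizations and filters, only the groups compared, a replicate block, GC correction and omission of each library. The fit was tested on simulated data. Intervals are 95% intervals, and floors cover counting error only.

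The 10 genes and all lists were chosen with earlier results of these data known. Named are all 10 genes, the other selenoproteins, up to 3 called genes with the smallest p per further list in each of 2 comparisons (treated lines, and Dox/IAA in SDS22-degron cells), and the 5 genes most like SELENOP. The labels number biological replicates. The authors use this term for independent experiments in general, without stating it for these libraries. Deviations of same-numbered libraries from their group means correlated over 0.1 in all 3 pairs between the treated lines (0.101 to 0.138) and between untreated and treated parental cells (0.124 to 0.246), so the numbers were taken as pairs there, and blocked values are given where they changed a call. Fewer pairs passed 0.1 in the other comparisons. Between the untreated lines all 3 were above 0 (0.0584 to 0.118), and blocked values are also given there for selenoproteins whose call changed. The p-values measure the spread between these libraries. Replicates differed by more than counting noise.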

Additional observations from a re-analysis of the deposited data

Results flagged for a closer look

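The effect of Dox/IAA on SELENOM differed between the lines by a test of the difference itself. Its log2 fold change was 0.65 in SDS22-degron and 0.22 in parental cells, a difference of 0.43 (edgeR quasi-likelihood test, adjusted p = 0.0340). The treated SDS22-degron libraries, at 37.5 to 41.8 CPM, were above the 9 others in 3 of 3 cases. Leaving out single libraries gave values from 0.37 to 0.49 with adjusted p from 0.0136 to 0.0966, and 8 of the 12 omissions ended the call. The cause was not tested.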

How the results depend on the processing

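SELENOP, chosen by its values in these data, kept its direction in every alternative, which is a description and no test. For the 8 other tested genes, 581 values kept direction and side of the threshold, 49 newly passed it, 22 no longer passed it and 28 changed sign. Of these 8 genes, the number called between the untreated lines (1) was 4 by the likelihood ratio test, 0 by DESeq2, 4 without a filter, 2 with only the groups compared, 2 with GC correction, and 0 to 2 without single libraries. Between the treated lines (2) it was 1 with library size only, 4 without a filter, and 1 to 2 without single libraries. With Dox/IAA in SDS22-degron cells (1) it was 2 with library size only, with upper quartile factors, without a filter and with only the groups compared. With Dox/IAA in parental cells (0) it was 1 with library size only, 1 with GC correction, and 0 to 1 without single libraries, and for the interaction (1) it was 0 to 1. Of the other selenoproteins, 5 were called with upper quartile factors and 1 to 4 without single libraries for Dox/IAA in SDS22-degron cells (3), 1 to 3 between the treated lines (2) and 0 to 1 in the interaction (0). Of all genes, the alternatives called 3505 to 5573 between the untreated lines (4698) and 6496 to 8139 between the treated lines (7486). With Dox/IAA they called 7512 to 9185 in SDS22-degron (8580) and 3934 to 6065 in parental cells (5264), and in the interaction 1681 to 3240 (2396).

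The replicate numbers were taken as pairs in 2 comparisons, where the replicate block changed the calls of SELENOH, SELENOT and MSRB1 (treated lines) and SELENOW (Dox/IAA in parental cells) and of no other selenoprotein tested. With the replicate block, 5 of the 8 were called between the untreated lines, 4 between the treated lines, 2 with Dox/IAA in SDS22-degron and 1 in parental cells, and 6 other selenoproteins with Dox/IAA in SDS22-degron cells. With GC correction and replicate block these were 5, 4, 3 and 2, and 4 other selenoproteins between the treated lines. In the other comparisons not all pairs passed 0.1, so the numbers were not taken as pairs there. Between the untreated lines, though, the 3 same-numbered pairs correlated at 0.0584 to 0.118, and the other pairs at -0.0795 to -0.0111. With the block, SELENOW, SELENOK, SELENOT, GPX1 and SELENOF newly passed the test between the untreated lines. Over all groups 7 of 18 same-numbered pairs and 0 of 36 other pairs had deviations correlated over 0.1. A library correlated best with its own number in 26 of 36 comparisons with another group, and 4 of 12 libraries did so in every other group.

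With library size only, the log2 fold change turned to 0.016 for SELENOS with Dox/IAA in SDS22-degron cells, to 0.0018 for SELENOK with Dox/IAA in parental cells and to -0.0045 for SELENOW in the interaction. Without single libraries, values that crossed 0 were those of SELENOK (-0.17 to 0.18) and SELENOT (-0.059 to 0.23) with Dox/IAA in parental cells, and of SELENOH (-0.041 to 0.10) and SELENOS (-0.070 to 0.031) in SDS22-degron cells. They were also SELENOS (-0.023 to 0.15) between the untreated lines and GPX1 (-0.043 to 0.072) between the treated lines. In the interaction they were SELENOK (-0.12 to 0.24), SELENOS (-0.033 to 0.14), SELENOW (-0.11 to 0.14), SELENOT (-0.14 to 0.16) and GPX4 (-0.020 to 0.061). The causes were not tested. With 3 libraries per group the median SE was 0.110 on the log2 scale between groups and 0.156 for the interaction, which limits small differences, and GPX2 was below the depth needed for a test.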
